A study of Homo sapiens with 12 samples.

Results

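Cyclin-dependent kinase (CDK) genes were followed in MOLT4 cells exposed to the CDK inhibitor SNS-032 or to 955, a compound built on it. Of 10 cell-cycle and transcriptional CDK genes chosen by symbol, 4 were found by their gene IDs among the 5759 genes of the authors' deposited table: CDK1, CDK6, CDK7 and CDK10. The other 6 (CDK2, CDK4, CDK8, CDK9, CDK12 and CDK13) are not analysed here. Nearly every gene in the table (5757 of 5759) had passed a false discovery rate (FDR) of 0.05 and an absolute log2 fold change of 1 in at least 1 of 3 comparisons. The 4 genes are therefore CDK genes listed for having changed, and how often they passed in any comparison says nothing about CDK genes in general.

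MOLT4 is an established human T lymphoblast line from an acute lymphoblastic leukaemia, labelled wild type in all 12 samples. The samples form 4 groups of 3: vehicle (DMSO) collected at 6 h, 955 dosed at 0.1 µM and collected at either 1 h or 6 h, and SNS-032 dosed at 1 µM and collected at 6 h. SNS-032 inhibits CDKs, CDK9, CDK7 and CDK2 among them. In 955 it is the target-binding part (warhead) of a conjugate with piperlongumine, a plant-derived electrophile, in a series on targeted protein degradation. Doses thus differ between the compounds, and no vehicle samples match the 1 h time, so treatment and time in culture cannot be told apart at 1 h. Nothing in the labels says that replicates were separate cultures, so p-values measure only the spread between these samples. Of 18 T lymphoblast markers, 6 were in the authors' deposited table, with average levels from 4.75 log2 CPM for CD2 to 7.60 for DNTT. The B cell marker CD79A was listed at 3.94 log2 CPM and the fibroblast marker COL1A1 at 3.18, and no myeloid or epithelial marker was found there. A table of changed genes cannot show which markers were absent from the cells.

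A CDK is a protein kinase that is active only when bound to a cyclin or a related partner. CDK1 with cyclins A and B drives entry into and passage through mitosis, and CDK6, like CDK4, binds D-type cyclins and phosphorylates the retinoblastoma protein in G1; CDK6 is the prominent G1 kinase of T-cell precursors. CDK7 with cyclin H and MNAT1 forms the CDK-activating kinase, which phosphorylates other CDKs and, within TFIIH, the tail of RNA polymerase II. CDK10 binds cyclin Q. CDK9 with cyclin T releases paused RNA polymerase II, and its inhibition is known to lower short-lived transcripts first.

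For each gene, the authors' deposited table gives 1 average level over all samples (log2 CPM, counts scaled to library size) and, against DMSO, the log2 fold change with its F, p-value and FDR. Values of single samples were not used here, so depth per sample is unknown. An implied standard error (SE) was obtained by dividing the size of the log2 fold change by the root of F. It follows the authors' model of replicate spread and is not an SD of replicates. A gene passed the threshold when FDR was under 0.05 and the absolute log2 fold change at least 1. Scaling bears on directions: the 13 mitochondrially encoded mRNAs were higher by a median log2 of 0.67 and 2.07 after 1 h and 6 h of 955, and of 2.35 under SNS-032. Setting them to 0 (mitochondrial scaling) lowers every value by that amount. The median over all listed genes was -0.05, -1.03 and -1.07 in the authors' scaling.

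The 4 genes were listed at very different levels. Per kilobase of exon (GENCODE 29 models), the average level was 6.87 log2 CPM for CDK6, 5.82 for CDK1, 5.23 for CDK10 and -0.72 for CDK7. The same order held with the longest coding transcript as the length, at 6.88, 5.89, 5.32 and -0.38. Without a value per sample, neighbours in this order could not be tested. Unscaled for length, CDK6 had a higher level than 98.9% of the listed genes and CDK7 than only 1.28%.

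CDK1 (gene ID 983, GRCh38.p14, chromosome 10, 60778331 to 60794852, forward strand) fell with both compounds at 6 h. Its longest coding transcript has 8 exons. After 1 h of 955, CDK1 showed no detectable difference from DMSO under the authors' scaling. Its deposited average level and fold changes imply approximate group levels of 173 CPM in DMSO, 176 and 52.6 after 1 h and 6 h of 955, and 59.7 for SNS-032. In the authors' scaling both treated 6 h groups were thus at about the same low level, and DMSO and the 1 h group at about the same high one. In the authors' deposited table the log2 fold change was 0.03 at 1 h (FDR 1; -0.65 after mitochondrial scaling), -1.71 for 955 at 6 h (FDR 2.96e-10) and -1.53 for SNS-032 (FDR 1.37e-09). The implied SEs were 0.13 in each comparison, and 3.28-fold and 2.89-fold lower levels correspond to the 6 h values. Mitochondrial scaling left CDK1 lower at 6 h, at -3.78 and -3.88. Its scaled 1 h value of -0.65 had an adjusted p of 0.000753 by the t statistic, short of the fold bound.

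The CDK1 promoter is a textbook case of cell-cycle gene control, and its sequence is shown with that of CDK10 because the genes moved in opposite directions at 6 h under the authors' scaling, though both were below 0 after mitochondrial scaling. The 250 bases before each RefSeq start site of the 4 genes (7 windows, GRCh38.p14) were searched on both strands for CCAAT, the cell-cycle homology region TTTGAA, 4 E2F-type spellings (TTTCGCGC, TTTGGCGC, TTTCCCGC, TTTGCCGC), the GC box GGGCGG and TATAAA. Capitals mark matches, which do not overlap in the stretches shown, and each stretch is written 5′ to 3′ on the gene's strand:
CDK1, chr10:60778158-60778187 (+), upstream start: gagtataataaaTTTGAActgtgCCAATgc
CDK1, chr10:60778397-60778426 (+), downstream start: ctgATTGGctgcTTTGAAagtctacgggct
CDK1, chr10:60778339-60778368 (+), downstream start: tttcctctttcTTTCGCGCtctagccaccc
CDK10, chr16:89686630-89686659 (+): cgggaaggagcTTTCGCGCctgcgccgcgg
Both CDK1 windows held CCAAT together with TTTGAA, a pair found in 4.69% of 35116 windows of the same length in the RefSeq table of promoters. The downstream window held each motif 2 times, with CCAAT at 78 and 46 bases before the start site and TTTGAA at 69 and 13. The second stretch above shows the matches at 78 and 69 bases. The TTTGAA match nearest to the start site, at 13 bases, is in none of the stretches shown. No window of CDK6, CDK7 or CDK10 held either motif. CDK1 and CDK10 each had the E2F-type spelling TTTCGCGC, at 128 and 48 bases before the start site, and any of the 4 spellings was found in 2.79% of all windows. GC boxes, found in 42.6% of all windows, stood in at least 1 window of each gene, and TATAAA, found in 10.7%, in none. These are matches of letters, and no factor's binding was measured.

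CDK6 (gene ID 1021; chromosome 7, 92604921 to 92836573, reverse strand) was the most abundant of the 4; it fell with 955 at 6 h and was lower with SNS-032 by less than the fold bound. Its implied group levels were 1664 CPM in DMSO, 1841 and 815 after 1 h and 6 h of 955, and 1157 for SNS-032. The authors' deposited table puts it, on the log2 fold scale, at 0.15 after 1 h (FDR 0.727; -0.53 after mitochondrial scaling), -1.03 for 955 at 6 h (FDR 3.97e-08) and -0.52 for SNS-032 (FDR 0.000369), with implied SEs of 0.11 in each. CDK6 thus passed the threshold with 955, just over the fold bound, and missed that bound with SNS-032. Under mitochondrial scaling both 6 h values were well past it, at -3.10 and -2.87. The scaled 1 h value of -0.53 had an adjusted p of 0.000977 by the t statistic, short of the fold bound. In GENCODE 29 its longest coding transcript, at 11612 bases, is the longest of the 4. Its first 91 bases overlap the antisense lncRNA gene CDK6-AS1, which was higher with both compounds under the authors' scaling, at 1.15 and 1.22 at 6 h (FDR 0.00011 and 5.28e-05) in the authors' deposited table, and at -0.92 and -1.12 after mitochondrial scaling. Whether strand was used in counting is not given in the sources used here, so reads of overlapping genes may not be separated.

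CDK7 (gene ID 1022; chromosome 5, 69234795 to 69277430, forward strand) had by far the lowest deposited level of the 4, and its values are the least certain. Implied group levels were 2.10 CPM in DMSO, 1.21 and 1.08 after 1 h and 6 h of 955, and 0.0939 for SNS-032. Its log2 fold changes in the authors' deposited table were -0.79 at 1 h (FDR 0.924), -0.96 for 955 at 6 h (FDR 0.546) and -4.48 for SNS-032 (FDR 0.00269). The implied SEs were 0.83, 0.84 and 1.06, and the 95% interval with SNS-032 ran from -6.71 to -2.25. CDK7 therefore passed as lower with SNS-032 in the authors' test, but it is listed through that value alone. Its FDR and interval with SNS-032 are thus no independent evidence of a fall. The interval for 955 at 6 h, from -2.73 to 0.82, takes in both a fall and a rise. After mitochondrial scaling the values at 6 h were -3.03 and -6.83, both past the threshold. Its partners in the CDK-activating kinase stood far above it in average level per kilobase of exon, at 2.44 log2 CPM for CCNH and 2.49 for MNAT1, against -0.72. The last 4392 bases of CDK7 overlap CCDC125. With a group level this close to 0 the fitted fold change depends on the model's treatment of low counts, and counts per sample were not used here. CDK7 is known as a broadly expressed gene, and whether so low a deposited level reflects its level in the cells could not be checked without counts; its rank and the gap to CCNH and MNAT1 are of the deposited values only.

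CDK10 (gene ID 8558; chromosome 16, 89686689 to 89696354, forward strand) was the only one of the 4 past the threshold as higher at 6 h under the authors' scaling, with both compounds, and its values were below 0 with both after mitochondrial scaling. Implied group levels were 76.9 CPM in DMSO, 103 and 167 after 1 h and 6 h of 955, and 189 for SNS-032, so in the authors' scaling each treated group was above DMSO. The log2 fold changes of the authors' deposited table were 0.42 at 1 h (FDR 0.0346), 1.12 for 955 at 6 h (FDR 3.56e-08) and 1.29 for SNS-032 (FDR 3.14e-09), and mitochondrial scaling turned them to -0.25, -0.95 and -1.05. The implied SEs were 0.12 in each. Of the scaled values, that for SNS-032 passed the threshold as lower. Its first 224 bases overlap the lncRNA gene LINC02166.

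**Figure D1:**
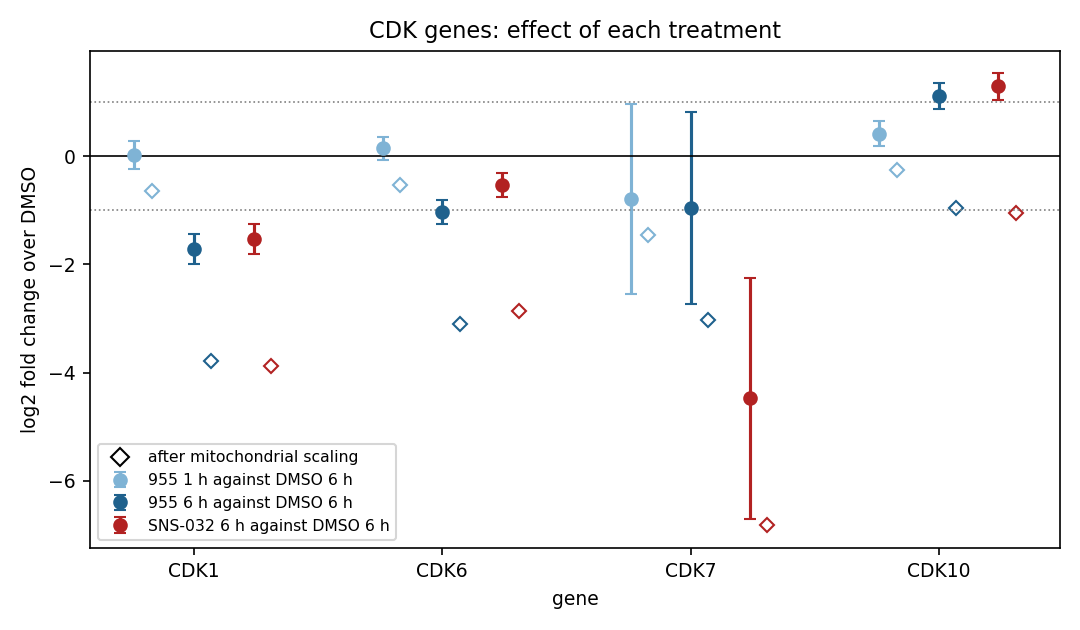
Log2 fold change over DMSO at 6 h (y axis) of CDK1, CDK6, CDK7 and CDK10 (x axis) with 955 (1 h and 6 h) and SNS-032 (6 h). Filled points are the authors' values with 95% intervals from the implied SEs, open diamonds the values after mitochondrial scaling, and dotted lines a log2 fold change of 1 in either direction; CDK10 lies above 0 in the authors' scaling and below 0 after mitochondrial scaling, and CDK7 has the widest intervals.

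**Figure D2:**
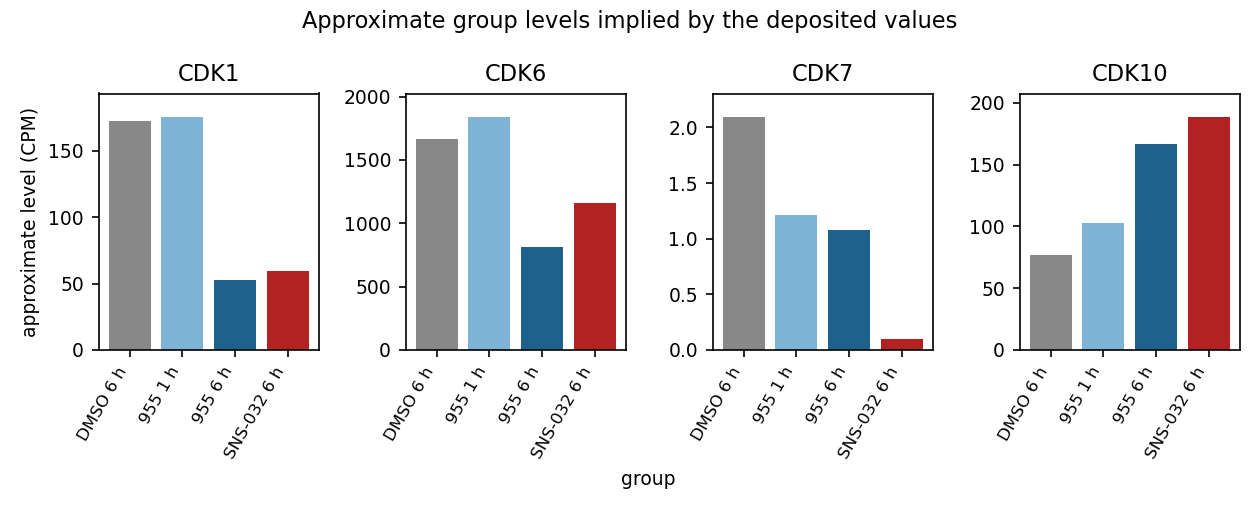
Approximate level of each gene (CPM in the authors' scaling, linear axis from 0, a separate scale per gene) in the 4 groups, derived from the deposited average level and fold changes with no error available. CDK1 is at 52.6 and 59.7 CPM in the 6 h treated groups against 173 in DMSO, and CDK7 is near 0 with SNS-032.

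Counted over the 4 genes, 955 at 1 h put 0 past the threshold in the authors' test, against 8.44% of all listed genes (0.729% higher and 7.71% lower). Only CDK10 had an unadjusted p under 0.05 there, and it was the only one of 4 with an FDR under 0.05, against 16.6% of the listed genes. With 955 at 6 h, 3 of 4 passed (CDK10 higher, CDK1 and CDK6 lower), against 85.3% (35.2% higher and 50.1% lower). The same 3 had an FDR under 0.05, against 93.5%. With SNS-032 3 of 4 passed (CDK10 higher, CDK1 and CDK7 lower), against 90.2% (37.8% higher and 52.5% lower), and all 4 had an FDR under 0.05, against 95.7%. The higher call of CDK10 is lost with 955 and reversed with SNS-032 after mitochondrial scaling. The members' medians, -0.99 with 955 at 6 h and -1.03 with SNS-032, were close to the -1.03 and -1.07 of all listed genes. Since passing in some comparison is what put a gene in the table, nothing is read from these shares. After mitochondrial scaling 0 of the 4 was higher in any comparison with DMSO, and 3 of 4 with 955 and 4 of 4 with SNS-032 passed as lower at 6 h.

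The series was designed to set 955 beside SNS-032, here at 0.1 and 1 µM, so differences between them are also differences in dose. The contrast was approximated from the deposited values as the difference of the log2 fold changes, with the root mean square of the implied SEs and Benjamini-Hochberg adjustment over all listed genes. None of the 4 genes passed the threshold in this contrast (0 of 4, against 1.11% of listed genes, 0.851% higher and 0.26% lower with 955; 2 of 4 had an unadjusted p under 0.05 by the same t statistic). CDK6 was lower with 955 than with SNS-032 by a log2 difference of -0.51 (SE 0.11, 95% interval -0.73 to -0.28, adjusted p 0.0122), under the fold bound. It was the only one of 4 with an adjusted p under 0.05, against 2.73% of listed genes, and it is in the table through its value for 955 at 6 h alone, which this contrast uses. This did not hold under mitochondrial scaling (-0.23, adjusted p 0.17), with an SE that ignores the shared control (0.371) or with adjustment over all 28395 tests behind the deposited FDR (0.06). For CDK7 the difference was 3.52 (SE 0.96, interval 1.51 to 5.54), which missed the threshold with an adjusted p of 0.0597. CDK7 is in the table through its SNS-032 value alone, at an implied level of 0.0939 CPM, so nothing is read from the size of this difference. Over the alternatives its adjusted p ran from 0.0171 under mitochondrial scaling to 0.632 with the SE that ignores the shared control. For CDK1 the difference was -0.18 (interval -0.45 to 0.09, adjusted p 0.574), or 0.092 after mitochondrial scaling. For CDK10 it was also -0.18 (interval -0.42 to 0.07, adjusted p 0.527), or 0.10 after mitochondrial scaling.

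**Figure D3:**
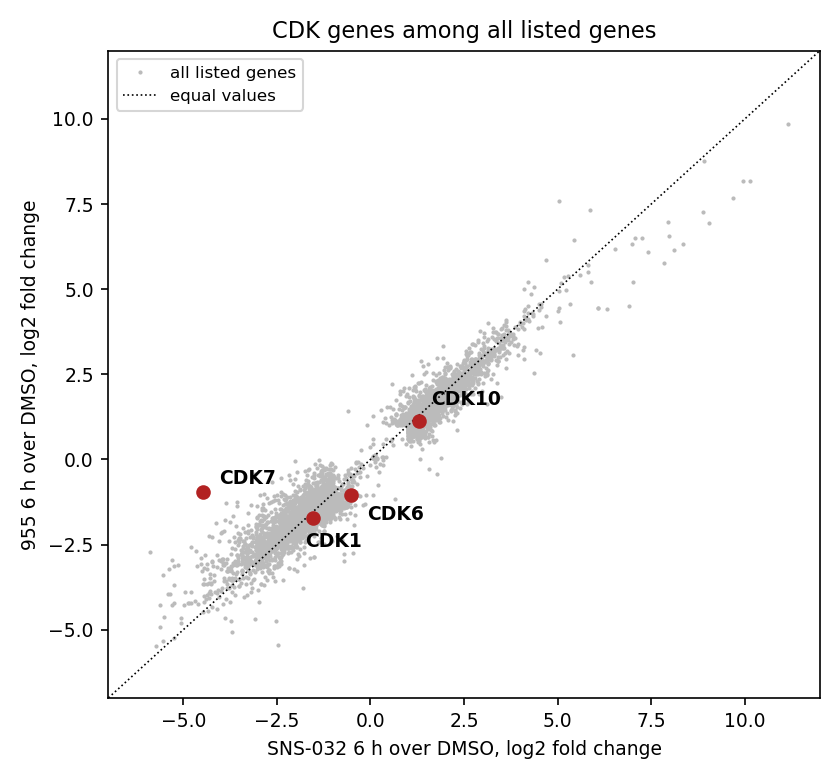
Log2 fold change over DMSO with 955 at 6 h (y axis) against SNS-032 at 6 h (x axis) for all 5759 listed genes (grey) and the 4 CDK genes (red), with a dotted line of equal values; both axes share the same DMSO samples. CDK1 and CDK10 lie near the line, CDK6 below it by 0.51, and CDK7 above it by 3.52.

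Between 1 h and 6 h of 955, CDK1 and CDK6 fell and CDK7 gave no detectable difference. The same approximation, applied to the times, gave a log2 difference (6 h minus 1 h) of -1.74 for CDK1 (SE 0.13, adjusted p 6.26e-11) and -1.18 for CDK6 (SE 0.11, adjusted p 1.46e-09). These 2 of 4 passed the threshold, both lower, against 62.6% of listed genes (27.0% higher and 35.6% lower). CDK10 differed by 0.70 (SE 0.12, adjusted p 9.92e-06), under the fold bound and with the opposite sign, -0.70, after mitochondrial scaling. An adjusted p under 0.05 was found for 3 of 4, against 84.7%. All 3 are in the table through 6 h values, so a difference from 1 h is in part what listed them. For CDK7 the difference was -0.17 with an interval from -1.94 to 1.60 (adjusted p 0.852).

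Other genes of the CDK system were taken from lists chosen by function, with values as log2 fold changes. Where 2 values are given for a gene, 955 comes first and SNS-032 second, both at 6 h. The medians of these lists stand beside -1.03 and -1.07 for all listed genes. Of 16 further CDK-family kinases, 3 were listed, and all 3 passed with both compounds at 6 h, where 85.3% (955) and 90.2% (SNS-032) of all listed genes passed. CDK18 stood above DMSO in the authors' deposited table, at 2.17 for 955 and 2.09 for SNS-032 at 6 h, and at 0.10 and -0.25 after mitochondrial scaling. CDK11A, which shares near-identical sequence with CDK11B so that its count is uncertain, was at 1.01 and 1.12 in the authors' deposited table and at -1.06 and -1.23 after mitochondrial scaling. CDK17, a kinase of the PCTAIRE branch, fell to -1.52 (FDR 0.000113) and -1.50 (FDR 0.000121) in the authors' deposited table. Their medians were 1.01 and 1.12.

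Of the cell-cycle cyclins listed, 6 of 10 fell at 6 h with each compound, among them partners of CDK1. Of 16 genes, 10 were listed; 6 passed as lower and 3 as higher with 955 at 6 h, and 6 and 2 with SNS-032, with medians of -1.53 and -1.54. Of all listed genes, 50.1% were lower and 35.2% higher with 955, and 52.5% and 37.8% with SNS-032, so these shares were near those of the table. After mitochondrial scaling 8 were lower and 0 higher with each compound. CCNB1, a mitotic cyclin of CDK1, fell to a log2 fold change of -3.97 under 955 and -3.30 under SNS-032 (FDR 3.8e-06 and 1.2e-05), as the authors' deposited table gives it. CCNA2, the S and G2 phase cyclin of CDK2 and CDK1, fell to -3.65 (FDR 1.94e-13) and -3.83 (FDR 7.14e-14) in the authors' deposited table. These values were larger in size than those of CDK1 itself, -1.71 and -1.53; the difference was not tested. CCND2, a D-type cyclin that binds CDK6, had the largest rise among these cyclins in the authors' deposited table, 3.67 for 955 (FDR 0.000523) and 3.75 for SNS-032 (FDR 0.000431); after mitochondrial scaling, at 1.60 and 1.41, it did not pass. CCNO was at 1.44 and 2.26 and the abundant CCNI at 1.01 and 0.73 in the authors' deposited table, with signs reversed by mitochondrial scaling (-0.63 and -0.09, -1.06 and -1.61). At 1 h, 2 of the 10 passed, both lower: CCNE1, the cyclin of CDK2 at S phase entry, at -1.18 (FDR 0.011), and CCNF at -1.13 (FDR 7.74e-06) in the authors' deposited table. These last 2 were outside the rule for named genes and chosen after their values were seen.

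The listed partners of transcriptional CDKs fell at 6 h with 1 exception. Of 11 genes, 5 were listed, and with each compound 4 passed as lower and 1 as higher, with medians of -1.31 and -1.53, beside 50.1% and 52.5% of all listed genes lower. CCNH fell to -1.91 and -2.11 (FDR 6.76e-06 and 1.89e-06) in the authors' deposited table. MNAT1, which assembles CDK7 with CCNH, fell to -1.21 (FDR 6.55e-05) and -1.02 (FDR 0.000471) in the authors' deposited table. The partner of CDK10, CCNQ, fell to -2.14 (FDR 0.00114) and -2.38 (FDR 0.000533) in the authors' deposited table, opposite to CDK10 under the authors' scaling. CCNT1, the cyclin of CDK9, fell to -1.31 (FDR 0.000121) and -1.53 (FDR 2.38e-05) in the authors' deposited table. CCNL2, a partner of CDK11, rose in the authors' deposited table, by 1.77 (FDR 2.18e-11) and 1.89 (FDR 5.87e-12), but was at -0.30 and -0.46 after mitochondrial scaling. None of the 5 passed at 1 h, where only CCNL2 had an FDR under 0.05 (0.51, FDR 0.0079, in the authors' deposited table). Of the CDK-activating kinase, CCNH and MNAT1 thus fell with both compounds. CDK7, at its doubtful level, passed as lower only with SNS-032, through which alone it is listed, and did not pass with 955.

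The listed genes of CDK inhibitor proteins passed as lower at 6 h under the authors' scaling, save CDKN2D with 955. Of 7 genes, 3 were listed; 2 passed with 955 and 3 with SNS-032, all lower, with medians of -2.22 and -2.53, beside the same 50.1% and 52.5% lower over the table. CDKN2C, an inhibitor of CDK4 and CDK6, fell to -3.13 (FDR 9.27e-13) and -3.74 (FDR 8.05e-14) in the authors' deposited table. CDKN2D, of the same family, was at -0.68 (FDR 0.122) for 955, and fell to -1.54 (FDR 0.00157) for the other compound in the authors' deposited table. CDKN1B, an inhibitor of cyclin-bound CDK2, was alone among the 3 in passing at 1 h, at -2.16 (FDR 0.000273) in the authors' deposited table, and it stood at -2.22 and -2.53 at 6 h. After mitochondrial scaling 2 of the 3 passed as lower at 1 h, with CDKN2C at -1.14. All 3 then passed as lower with 955 at 6 h, with CDKN2D at -2.76.

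The listed genes that set the phosphorylation and assembly of CDKs fell with 1 exception. Of 9 genes, 6 were listed, of which 5 passed as lower with each compound at 6 h, with medians of -2.16 and -2.04, beside 50.1% and 52.5% lower among all listed genes. WEE1, the kinase that holds CDK1 inactive, fell at 1 h to -1.36 (FDR 1.29e-05) and at 6 h to -2.79 and -2.51 in the authors' deposited table. CDC25A, a phosphatase that activates CDKs, likewise fell to -1.10 at 1 h (FDR 0.000535) and to -1.54 and -1.57 at 6 h in the authors' deposited table. Genes with opposite roles thus moved in the same direction. CDC25B fell to -1.18 and -1.12 at 6 h, CDKN3 to -2.94 and -2.98, and CKS2, a CDK-binding subunit, to -3.40 and -4.18 in the authors' deposited table. CDC37, a chaperone partner for kinases such as CDK4, was at 0.87 and 1.06 in the authors' deposited table, and passed as lower after mitochondrial scaling (-1.20 and -1.29). Of the listed genes with a promoter window, CCNB2 and CCNF (2 of 9 cyclins), CDKN3 and CKS2 (2 of 5 here), E2F3 (1 of 5 RB-E2F genes) and ATM, which was above DMSO at 6 h in the authors' scaling and below it after mitochondrial scaling, held both CCAAT and TTTGAA, as CDK1 did. The pair was in 0 of 3 CDK inhibitor genes, 0 of 5 partners of transcriptional CDKs and 0 of 3 further CDK-family kinases, and in 5.79% of all 27305 genes with a window.

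The RB-E2F genes, which act downstream of CDK4, CDK6 and CDK2, held some that fell at 1 h. Of 13 genes, 7 were listed; 3 passed at 1 h, and 4 (955) and 5 (SNS-032) at 6 h, all lower, with 6 h medians of -1.11 and -1.07. Over all listed genes 7.71% were lower at 1 h, and 50.1% and 52.5% at 6 h, near the share of this list at 6 h with 955. E2F2 and E2F7 passed at 1 h, at -1.16 (FDR 1.73e-05) and -1.25 (FDR 2.37e-05), and in the authors' deposited table they were at 0.04 and 0.01 after 6 h of 955, and at 0.03 and 0.09 after SNS-032. Both are in the table through their 1 h values alone, so their difference between times was given no test. After mitochondrial scaling their values were -1.83 and -1.93 at 1 h of 955, and -2.03 and -2.06 at 6 h of 955. In that scaling 6 of the 7 listed genes passed as lower at 1 h, and all 7 at 6 h with each compound. E2F8 passed in all 3 comparisons of the authors' deposited table, at -1.33, -1.11 and -1.04. E2F3 was at -1.22 with each compound, RBL1 at -1.42 and -1.32, E2F6 at -2.60 and -2.23 and E2F5 at -0.89 and -1.07 in the authors' deposited table.

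Among genes tied to CDK9, CDK8 and CDK12, those listed moved in both directions. RN7SK, the RNA that holds CDK9 inactive, rose by 3.32 and 3.49 (FDR 1.73e-07 and 9.12e-08) in the authors' deposited table, and passed as higher after mitochondrial scaling too, at 1.25 and 1.14. RN7SK lacks a poly(A) tail, and the libraries were made with an mRNA kit. MEPCE, which caps that RNA, fell to -1.42 at 1 h and to -2.30 and -2.55 at 6 h in the authors' deposited table. ELL, an elongation factor, fell to -1.13 at 1 h (FDR 0.00034) and was at -0.68 and -0.48 at 6 h in the authors' deposited table. NELFA, a pausing factor subunit, was the 1 listed of 7 pausing genes, and fell to -1.28 and -1.36 in the authors' deposited table. Of the Mediator kinase module, which holds CDK8, MED12L was at 1.80 and 1.82 and MED12 at 0.91 and 1.00 in the authors' deposited table, all below 0 after mitochondrial scaling (-0.27 and -0.53, -1.16 and -1.34). GTF2H1, a subunit of the TFIIH core that carries CDK7, fell to -1.35 and -1.24 in the authors' deposited table. ATM, a repair gene reported to need CDK12, was at 1.46 and 1.53 in the authors' deposited table, and at -0.61 and -0.82 after mitochondrial scaling.

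**Figure D4:**
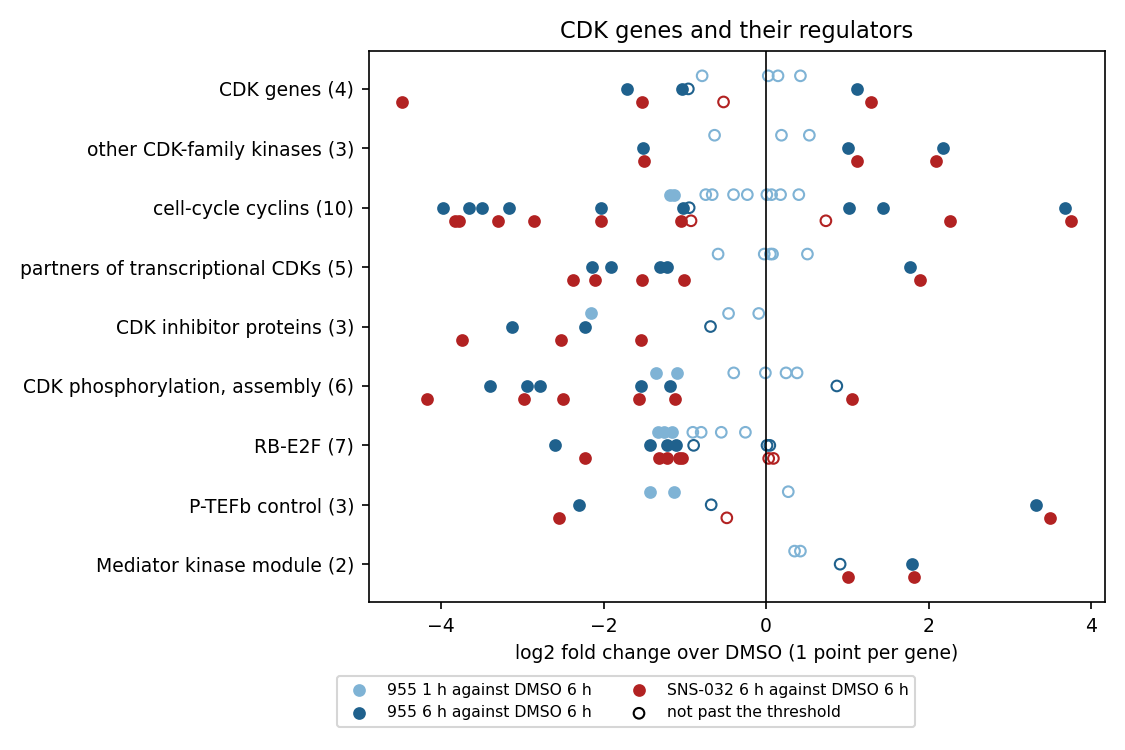
Log2 fold change over DMSO (x axis, authors' scaling) of each listed gene in the CDK gene list and 8 lists of related genes (rows, number of listed genes in brackets), with 1 point per gene and comparison; filled points passed FDR under 0.05 and an absolute log2 fold change of 1. Cell-cycle cyclins, inhibitor proteins and phosphorylation genes lie mostly below 0 at 6 h; mitochondrial scaling would move every 6 h point left by 2.07 or 2.35, below 0 for all but RN7SK and CCND2 with both compounds and CDK18 with 955.

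Genes with a pattern most like each CDK gene were found by the Euclidean distance over the 3 log2 fold changes. Candidates were protein-coding genes within 1 log2 unit of its average level and outside all the gene lists used above. The CDK genes, cyclins and CDK regulators of those lists were thus left out of this search. The nearest to CDK1 among 886 candidates were MCM6, THRAP3 and SF3B3, at distances of 0.05, 0.06 and 0.07. For CDK10, with 769 candidates, they were TMEM175, TONSL and PRDX5, at 0.04, 0.06 and 0.07. CDK6 had only 71 candidates at its level, and the nearest, HMGB2, LEF1 and TRIM28, stood off by 0.54, 0.60 and 0.64. The closest to CDK7 of 392 candidates, HOXB7, GGACT and BBS12, were at 0.95, 0.97 and 1.13. The 3 comparisons share the DMSO samples, and likeness over 3 values is a description only.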

How the data were processed

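RNA was sequenced from 12 MOLT4 samples, grouped by their titles. Per the labels' protocols, RNA came from a column kit and libraries from a BGI mRNA kit. The submitters' processing notes name the build hg38 and the tool DESeq2, without roles; aligner, counter, strand, annotation and filters are not given in the sources used here. Per the file headers, the authors deposited 3 comparisons against DMSO, each with log fold change, log CPM, F, p-value and FDR. The deposited log values were read as log2, since no gene's largest absolute value over the 3 comparisons was under 1 (the lowest was 1.0006). The deposited F statistic, a score, was used for SEs. The p-values and FDR are as the authors deposited them. Since values per sample were not used, the planned count and linear models were replaced by the authors' own tests, as the design allowed.

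The number of tests (28395) is the one at which tests times p over FDR came out whole, within 0.01, for 81.1% of 3083 values. Denominator degrees of freedom were solved from F and p (median 23.3, lowest 8.23; CDK7 17.3). For contrasts of treated groups, p came from a t distribution with them. The contrast of 955 against SNS-032 was tried on simulated counts of 5759 genes. At an adjusted p under 0.05, without the fold bound, it recovered 89% of 100 genes changed by log2 1 and 100% of 100 changed by 2. A direct contrast of the same simulated counts recovered 88% and 99%. Depth and spread were assumed in the simulation, so these shares are not the power of the contrast at the threshold used here. Group levels assume 4 equal groups whose mean CPM is the deposited average level. Of the gene IDs, 5727 of 5759 were named from RefSeq (GRCh38.p14). Named genes were all members, every gene of lists with 8 or fewer listed genes, and otherwise the 2 largest falls, 2 largest rises and the most abundant gene; some genes of these lists are not reported here. Members, lists and tests were chosen with earlier results of these data known. Scaling, thresholds, a level filter, SEs and the adjustment were varied. Python 3.11.15, scipy 1.17.1 and pandas 2.3.3 were used.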

Additional observations from a re-analysis of the deposited data

Results flagged for a closer look

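The effect of 955 differed between its 2 times for 3 CDK genes by the approximate contrast (t statistic, Benjamini-Hochberg over all listed genes). The log2 difference, 6 h minus 1 h, was -1.74 for CDK1, -1.18 for CDK6 and 0.70 for CDK10, the last turning to -0.70 under mitochondrial scaling. An adjusted p under 0.05 was found for 84.7% of all listed genes in this contrast. Between the compounds at 6 h, CDK6 differed by -0.51 with an adjusted p of 0.0122, which rose to 0.371 with an SE that ignores the shared control. These 3 genes are in the deposited table through their 6 h values, and CDK6 through that for 955 alone, so the contrasts use values that put them there.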

How the results depend on the processing

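Mitochondrial scaling reversed 8 values of the CDK genes: at 1 h CDK10 (-0.25), CDK6 (-0.53) and CDK1 (-0.65), CDK10 with 955 at 6 h (-0.95) and SNS-032 (-1.05), CDK10 (0.098) and CDK1 (0.092) for 955 against SNS-032, and CDK10 between 6 h and 1 h (-0.70). It raised the CDK genes past the threshold for 955 against SNS-032 from 0 to 1, CDK7. Without the fold bound, 1 CDK gene passed at 1 h and 1 between the compounds. With a bound of 2, the counts became 0 for 955 at 6 h, 1 for SNS-032 and 0 between 6 h and 1 h. The other alternatives (FDR under 0.01, a level of at least 1 log2 CPM, the larger SE, the SE that ignores the shared control, adjustment over all tests) left these counts within 1.5 times. Over all listed genes, the 64 genes past the threshold between the compounds became 181 under mitochondrial scaling, 157 without the bound, 13 at a bound of 2, 20 at 0.01, 8 with the SE that ignores the shared control and 20 with adjustment over all tests. The 486 at 1 h became 1608, 958 and 48 under the first 3 of these. With a bound of 2, the 4911 of 955 at 6 h, 5196 of SNS-032 and 3608 between the times became 1622, 1853 and 952. No paired analysis was possible because the deposited table holds no values per sample, and leaving out replicates was not run for the same reason. Low level limits CDK7 most, with an implied SE of 1.06 for SNS-032 against 0.11 to 0.13 for the other 3 genes.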
